A study of Homo sapiens with 6 samples.

Results

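The genes described here encode the enzymes that write and erase marks on histones, together with the numbered bromodomain proteins that read acetyl marks. Members were taken from the count table by gene symbol alone: the KAT, HDAC, SIRT, KMT, SETD, KDM, PRMT and BRD number series, with EP300, CREBBP, EZH1, EZH2, EHMT1, EHMT2 and DOT1L. The symbols gave 81 of the 16362 genes in the table, of which 10 were acetyltransferase genes, 11 zinc-dependent deacetylase genes, 7 sirtuin genes, 22 lysine methyltransferase or SET-domain genes, 17 lysine demethylase genes, 7 arginine methyltransferase genes and 7 bromodomain genes. RNA came from cells labelled MDA-MB-231, an established human triple-negative breast cancer line. There were 3 control libraries, labelled as having received no agent, and 3 libraries from cells given CTI-2, all read as long cDNA molecules on an Oxford Nanopore instrument. Both groups were taken at 24 h, the time in the series design. CTI-2 is a code name, and neither its dose nor a vehicle is stated in the sources. Nothing in the labels says that the 3 libraries of a group came from separate cultures, so p-values measure the spread between these libraries, which may be technical.

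Histone tails carry acetyl and methyl groups that change how tightly DNA is packed and which proteins bind it. Acetyltransferases add acetyl groups at promoters and enhancers, bromodomains bind them, and deacetylases and sirtuins remove them. Methyltransferases and demethylases set marks that either accompany transcription or keep genes silent, and in breast cancer cells EZH2 and KDM1A are widely studied drug targets. Several of these enzymes also act on proteins other than histones.

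Library totals ran from 2208261 to 3929532 counts over 13908 to 14716 genes, so that 3 counts are worth 0.763 to 1.36 CPM (a gene's count scaled to a library total of 1000000). Chi-square divided by its degrees of freedom was 3.94 between controls 1 and 2, 3.92 between controls 1 and 3 and 6.76 between controls 2 and 3. Of the 10 genes listed as typical of the line, 9 had a mean of at least 15 CPM in both groups and AXL had 3.34 and 6.02 CPM. VIM, commonly abundant in the line, was only at 14.5 to 18.9 CPM in the 6 libraries. Of the genes listed as absent from the line, CDH1, ESR1 and GATA3 were at 0 to 0.770 CPM, and EPCAM and ERBB2 at 4.98 to 11.1 CPM. CDKN2A, commonly described as deleted in MDA-MB-231, was at 254 to 612 CPM in every library. The data go against the label at CDKN2A and at the low level of VIM, and the cells are called by their label only. Of 12 listed markers of leukocytes, endothelium, red cells and adipocytes, 8 were in the table, summing to 5.01 to 8.51 CPM in controls and 6.98 to 9.44 CPM after CTI-2, and none exceeded 4.58 CPM in any library.

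After CTI-2, transcripts of 3 members fell and none rose past the threshold. HDAC10 and HDAC6, which encode a related pair of largely cytoplasmic deacetylases, were lower by 3.40-fold and 1.66-fold, and DOT1L, the gene of the methyltransferase that acts on the globular core of histone H3, was lower by 1.43-fold. Calls were made at 0.05 on Benjamini-Hochberg adjusted p from the quasi-likelihood test of edgeR, over all genes with enough counts. Of the 81 members 68 could be tested, and the 3 calls are 4.41% of them. Over all 9848 tested genes 8.03% were called, 4.64% as lower and 3.39% as higher, so the share of members called was not above the background. At an unadjusted p under 0.05 the members gave 16 of 68 (23.5%), 11 lower and 5 higher, against 23.9% of all tested genes. The median log2 fold change was -0.09 over the 68 members and -0.01 over all tested genes, with 41 members below 0 and 27 above. Of the 68 members 48 lay within 0.3 of 0 on the log2 scale, against 6380 of all 9848 tested genes. Only HDAC10 and KDM7A exceeded 1 in either direction, as did 222 of all tested genes. CPM of the 2 groups did not overlap for 14 members (20.6%; 9 lower and 5 higher), against 28.8% of all tested genes (15.6% lower and 13.2% higher). In bulk RNA, fewer cells that express a gene and less of its RNA per cell cannot be told apart.

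**Figure D1:**
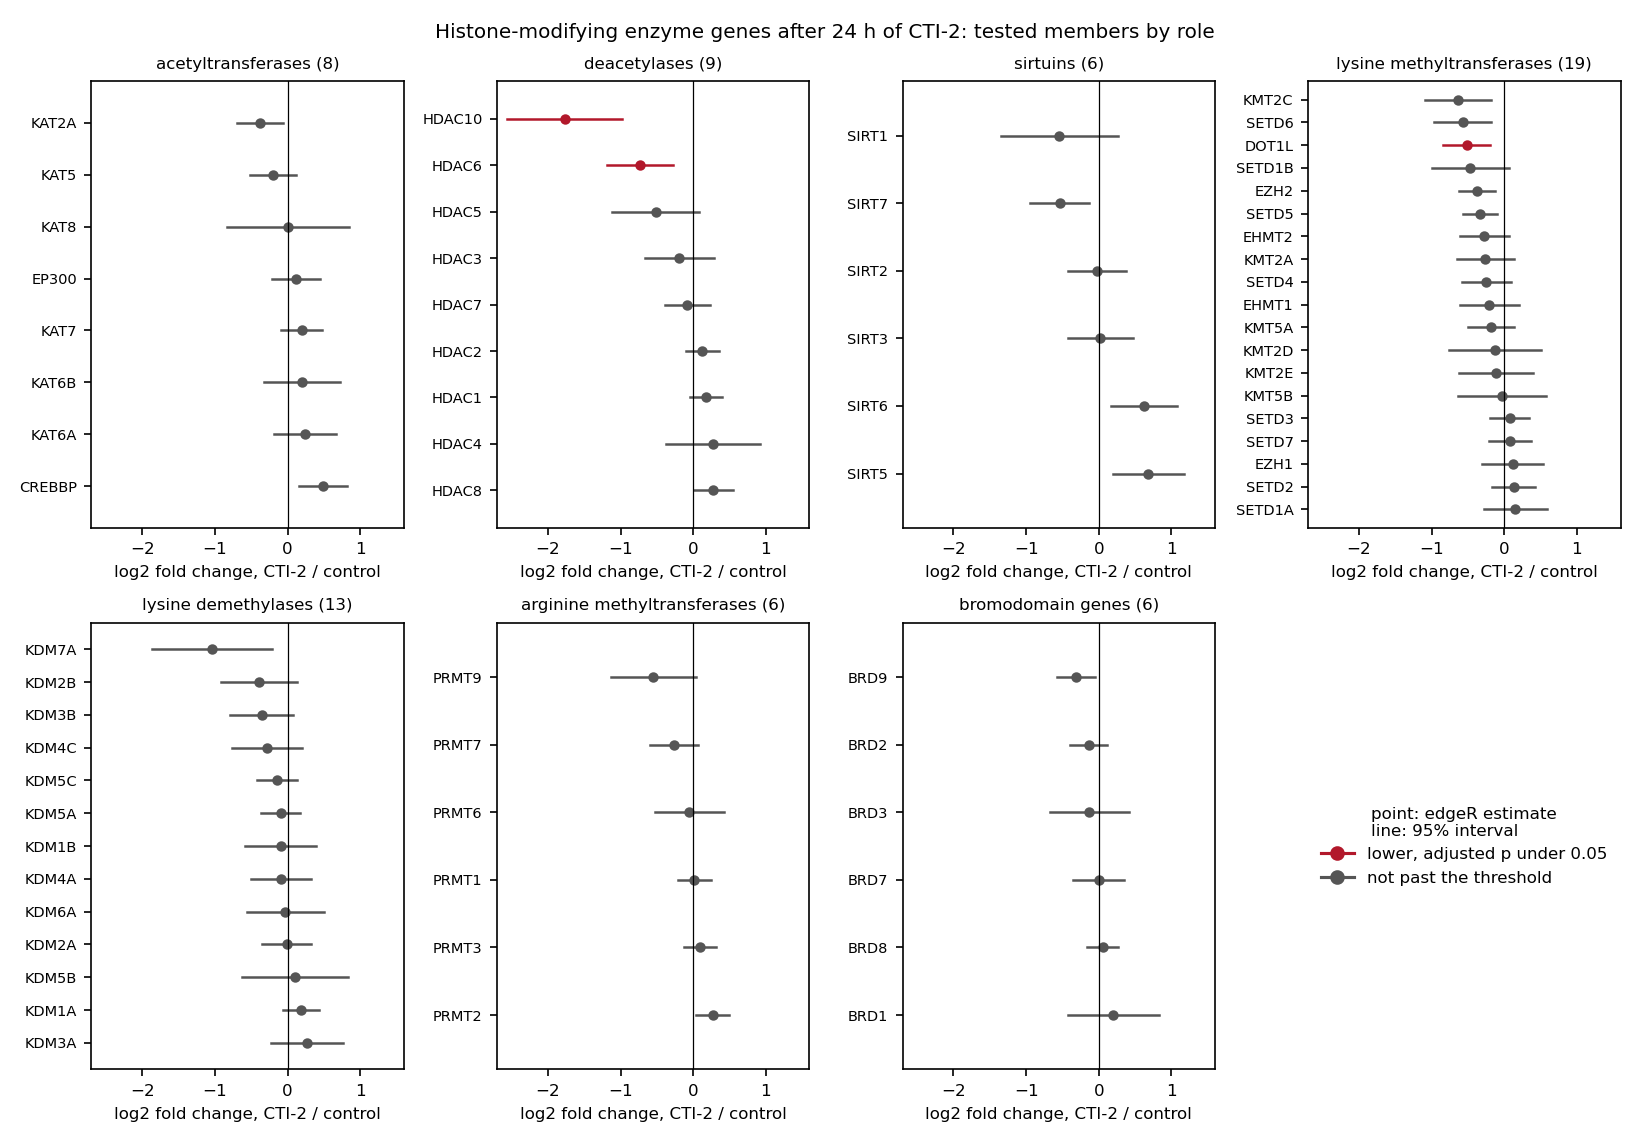
Log2 fold change of 67 of the 68 tested members (x axis, CTI-2 over control), by role, with points for the edgeR estimate and lines for its unadjusted 95% interval. The 3 red genes, HDAC10, HDAC6 and DOT1L, are the members past an adjusted p of 0.05, all to the left of 0.

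Among the zinc-dependent deacetylase genes 2 of 9 tested members fell and 7 did not pass, where 8.03% of all tested genes were called. With so few members nothing is read from that share. The upstream sequences of the pair are shown because both were called and had a matched window. No window was matched for DOT1L, which was also called. RefSeq promoter windows matched 74 of the 81 members by symbol. Each sequence below is the 250 bases before an annotated start, 5′ to 3′ on the gene's strand in GRCh38.p14, and capitals mark GC boxes (GGGCGG on either strand). The HDAC10 window is chr22:50251266-50251515 on the minus strand, and the HDAC6 window, the first of 3 annotated ones, is chrX:48801817-48802066 on the plus strand. RefSeq starts differ from the GENCODE 29 gene ends given below: the HDAC6 window lies inside that gene span, and the HDAC10 window runs into its own.
HDAC10: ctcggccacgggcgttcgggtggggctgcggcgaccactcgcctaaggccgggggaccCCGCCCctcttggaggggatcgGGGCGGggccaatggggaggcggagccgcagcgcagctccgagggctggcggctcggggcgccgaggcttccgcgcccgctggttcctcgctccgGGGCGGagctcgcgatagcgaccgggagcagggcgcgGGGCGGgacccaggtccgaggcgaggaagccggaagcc
HDAC6: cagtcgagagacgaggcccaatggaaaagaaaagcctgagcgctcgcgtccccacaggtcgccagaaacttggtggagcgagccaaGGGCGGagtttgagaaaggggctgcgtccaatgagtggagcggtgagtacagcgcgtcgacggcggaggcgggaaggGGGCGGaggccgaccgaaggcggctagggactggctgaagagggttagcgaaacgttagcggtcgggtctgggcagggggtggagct
The HDAC10 window held 4 GC boxes and was 78.0% G and C, and that of HDAC6 held 2 and was 64.4%. A GC box was present in 42.6% of all 35116 windows and in 66.4% of the 113 windows of members, whose median GC content was 67.2% against 58.0% for all. Neither of the pair held a TATA box (TATAAA, either strand), present in 10.7% of all windows and in 0.9% of members' windows. HDAC10 also had 2 matches to CGGAAG, the core bound by ETS factors, and HDAC6 had none. That core was found on either strand in 16.5% of all windows and in 23.0% of members' windows. A CCAAT box (CCAAT, either strand) occurred 1 time in HDAC10 and 2 times in HDAC6. It was present in 32.0% of all windows and in 26.5% of members' windows.

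HDAC10 (chromosome 22, 50245183 to 50251405, minus strand, GENCODE 29 on GRCh38) encodes an enzyme best known for deacetylating polyamines. It had 11.9, 7.89 and 5.53 CPM in controls 1 to 3 and 3.49, 2.36 and 0.906 CPM in CTI-2 libraries 1 to 3. Every CTI-2 library lay below every control, although reads were few, with 31, 31 and 13 counts in controls and 11, 7 and 2 after CTI-2. Means were 8.45 ± 3.24 and 2.25 ± 1.29 CPM (SD, n = 3 per group), with a log2 fold change of -1.77 (SE 0.39, edgeR adjusted p = 0.00397). The call held whichever library was left out, with edgeR adjusted p between 0.0015 and 0.0403. DESeq2 gave it no adjusted p. Annotated exons of HDAC10 share 2763 bases on the same strand with MAPK12, the p38-gamma kinase gene, which also fell (22.9 ± 3.43 to 10.96 ± 2.13 CPM, edgeR adjusted p = 0.00245). No source states how reads of the shared exons were split between HDAC10 and MAPK12, so the HDAC10 counts are uncertain.

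HDAC6 (chromosome X, 48801377 to 48824982, plus strand), whose product deacetylates tubulin, overlaps no other counted gene. It was at 22.3, 15.5 and 20.9 CPM in controls and at 11.7, 13.8 and 7.25 CPM after CTI-2. The groups did not overlap, but control 2 and CTI-2 library 2 lay close together. The log2 fold change was -0.73 (SE 0.22, edgeR adjusted p = 0.0369). This call was lost when control 1 (adjusted p = 0.142), control 3 (0.0826), the first CTI-2 library (0.0702) or the third (0.201) was left out, and over the 18 alternatives the adjusted p ran from 0.017 to 0.201. HDAC1 and HDAC2, the paralogous catalytic subunits of the nuclear corepressor complexes, had 177 ± 6.98 and 193 ± 9.69 CPM, and 140 ± 12.6 and 148 ± 10.8 CPM, in controls and after CTI-2. Their log2 fold changes were 0.17 (95% interval -0.04 to 0.39) and 0.13 (-0.10 to 0.35). HDAC3, the enzyme of the NCOR complexes, had -0.19 (-0.67 to 0.29). HDAC8 had 49.7, 48.1 and 51.1 CPM in controls and 66.3, 55.3 and 52.1 CPM after CTI-2, with an adjusted p of 0.194 in edgeR, and HDAC5 lay at -0.51 on the log2 scale (adjusted p = 0.291). The groups of HDAC8 and HDAC1 did not overlap, yet neither passed the test. HDAC9, with 0 to 2 counts per library, and HDAC11, with 4 to 14, were below the filter.

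The sirtuins, NAD-dependent deacylases of nucleus, cytoplasm and mitochondria, gave no call among 6 tested members in edgeR, with 3 at an unadjusted p under 0.05 in opposite directions. Over all tested genes 8.03% were called and 23.9% had such an unadjusted p, and nothing is read from counts this small. SIRT5, a mitochondrial enzyme that removes succinyl groups, had 8.86, 6.87 and 9.36 CPM in controls and 14.3, 12.8 and 10.9 CPM after CTI-2. SIRT6, which acts on chromatin and telomeres, had 13.1, 8.91 and 10.2 CPM against 14.0, 17.5 and 16.3 CPM. In both genes every CTI-2 library was above every control, as in 13.2% of all tested genes. The log2 fold changes were 0.68 (SE 0.24, edgeR adjusted p = 0.074) for SIRT5 and 0.63 (SE 0.22, adjusted p = 0.0754) for SIRT6. SIRT6 passed with the GC trend removed (log2 fold change 0.79, edgeR adjusted p = 0.0238), and its adjusted p ran from 0.0238 to 0.236 over the alternatives. SIRT7, a nucleolar sirtuin, went the other way at 34.7, 17.6 and 31.9 CPM against 19.7, 18.2 and 15.8 CPM (log2 fold change -0.54, adjusted p = 0.0933), with control 2 again among the CTI-2 values. It shares 105 exonic bases with MAFG on the same strand, which had a log2 fold change of -0.08. SIRT1, studied for its deacetylation of p53, had only 3 to 23 counts per library and a wide interval of -1.34 to 0.26. SIRT2 and SIRT3 lay at -0.02 and 0.02, and SIRT4, with 4 to 7 counts, was not tested.

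No acetyltransferase gene was called among 8 tested in edgeR, where 2 had an unadjusted p under 0.05, and 6 of the 8 had a positive log2 fold change (median 0.15). Of all tested genes 8.03% were called, 23.9% had such an unadjusted p and 51.3% had a negative log2 fold change. CREBBP, which encodes the coactivator CBP, had 35.4, 22.9 and 38.7 CPM in controls and 41.2, 38.1 and 49.4 CPM after CTI-2. The groups overlapped slightly, and control 2 was the lowest library. The log2 fold change was 0.48 (95% interval 0.15 to 0.81, edgeR adjusted p = 0.0584), with adjusted p of 0.0194 to 0.237 over the alternatives. Its paralog EP300 had 32.7, 27.2 and 39.6 CPM against 41.2, 30.3 and 29.9 CPM and a log2 fold change of 0.11 (-0.22 to 0.44). The intervals of these paralogs overlap, and the difference between them was not tested.

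KAT2A, the acetyltransferase of the SAGA complex, had 77.4, 43.3 and 53.6 CPM in controls and 42.5, 43.8 and 41.2 CPM after CTI-2 (log2 fold change -0.38, adjusted p = 0.124), and shares 405 exonic bases with AC099811.2 on the same strand. Without control 1 its log2 fold change was -0.13 (edgeR adjusted p = 0.7), and without control 2 it was -0.53 (0.0247). KAT5, which encodes TIP60, had 33.1, 32.3 and 32.3 CPM against 25.7, 28.6 and 28.1 CPM. Its groups did not overlap, but its log2 fold change of -0.20 (-0.52 to 0.11) was not called, and it overlaps RNASEH2C on the opposite strand by 1439 exonic bases. KAT7, KAT6A, KAT6B and KAT8 had log2 fold changes of 0.19, 0.24, 0.20 and 0.01. KAT2B and KAT14, with 0 to 13 counts per library, were not tested, and KAT14 shares 712 exonic bases with PET117 on the same strand.

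Lysine methyltransferase or SET-domain genes, called the lysine methyltransferase group here, had 1 call among 19 tested members. Of the 19, 14 had a negative log2 fold change, with a median of -0.20. Over all tested genes 51.3% were negative and 8.03% were called. DOT1L (chromosome 19, 2164149 to 2232578, plus strand) had 47.4, 30.8 and 45.1 CPM in controls and 29.5, 26.0 and 25.8 CPM after CTI-2. The CTI-2 values were tightly grouped and control 2 lay just above them. Its log2 fold change was -0.52 (SE 0.16, edgeR adjusted p = 0.0388). The call was lost without any 1 library other than control 2 (adjusted p = 0.203 without control 1, 0.107 without control 3, and 0.0514, 0.142 and 0.118 without CTI-2 libraries 1, 2 and 3), in a range of 0.00609 to 0.203 over 18 alternatives. With each library's trend with transcript GC content removed its log2 fold change was -0.40 (adjusted p = 0.117). DOT1L shares 529 exonic bases with PLEKHJ1 on the opposite strand, which had a log2 fold change of -0.11 and was not called.

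EZH2, the catalytic subunit of the Polycomb complex that methylates histone H3 to silence genes, narrowly missed the threshold. It was at 89.0, 87.3 and 116 CPM in controls and at 78.0, 73.5 and 63.9 CPM after CTI-2. The groups did not overlap, and control 3 was far above the other controls. The log2 fold change was -0.38 (SE 0.12, edgeR adjusted p = 0.0547), with adjusted p of 0.0301 to 0.249 over the alternatives, and its paralog EZH1 had 0.11 (95% interval -0.31 to 0.54). SETD6, which methylates non-histone proteins including an NF-kB subunit, had 22.0, 22.4 and 28.1 CPM in controls and 14.9, 17.9 and 13.6 CPM after CTI-2 (log2 fold change -0.57, adjusted p = 0.0557). All 3 CTI-2 values of SETD6 lay below the controls, but 1086 of its exonic bases overlap CNOT1 on the opposite strand.

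SETD5, a SET-domain gene linked to intellectual disability, was at 250, 191 and 286 CPM in controls and at 199, 182 and 172 CPM after CTI-2 (log2 fold change -0.33, adjusted p = 0.0709). KMT2C, one of the large methyltransferases of enhancers, was at 28.9, 15.01 and 32.3 CPM and at 13.0, 15.2 and 18.1 CPM (-0.63, adjusted p = 0.0761). In both genes control 2 fell among the CTI-2 libraries while controls 1 and 3 lay above them. The paralogs EHMT1 and EHMT2, which add the repressive mark of silent chromatin, had log2 fold changes of -0.20 (95% interval -0.61 to 0.20) and -0.27 (-0.61 to 0.06). KMT2A, the gene rearranged in many leukaemias, had -0.26, KMT2D -0.13 and SETD2, which marks transcribed gene bodies, 0.13, and none of them passed. KMT2A shares 5599 exonic bases with AP001267.5 on the same strand, a counted gene at 123 ± 14.5 and 147 ± 3.12 CPM, so its own counts are uncertain. For KMT2B a single CTI-2 library held 1 count and the remaining 5 libraries held 0, where a count of 0 allows up to 1.36 CPM. The reason for its near absence from the counts was not tested. KMT5C and SETD9, with 1 to 11 counts per library, were not tested.

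Summed over its 22 members, the lysine methyltransferase group took 798, 660 and 896 CPM in controls and 655, 649 and 603 CPM after CTI-2. The means were 784 ± 119 and 636 ± 28.8 CPM (SD, n = 3 per group), a ratio of 0.810, and control 2 was within 5 CPM of the nearest CTI-2 library. Without SETD5 the sums were 548, 469 and 609 against 456, 468 and 431 CPM, a ratio of 0.833. The other 6 roles overlapped between groups, with ratios of 0.922 to 1.02. These sums are a description and were not tested. They use CPM scaled to library totals alone, without the further scaling (TMM) of the edgeR fit. Under library totals the median log2 fold change of all tested genes was -0.06, against -0.01 in the fit.

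**Figure D2:**
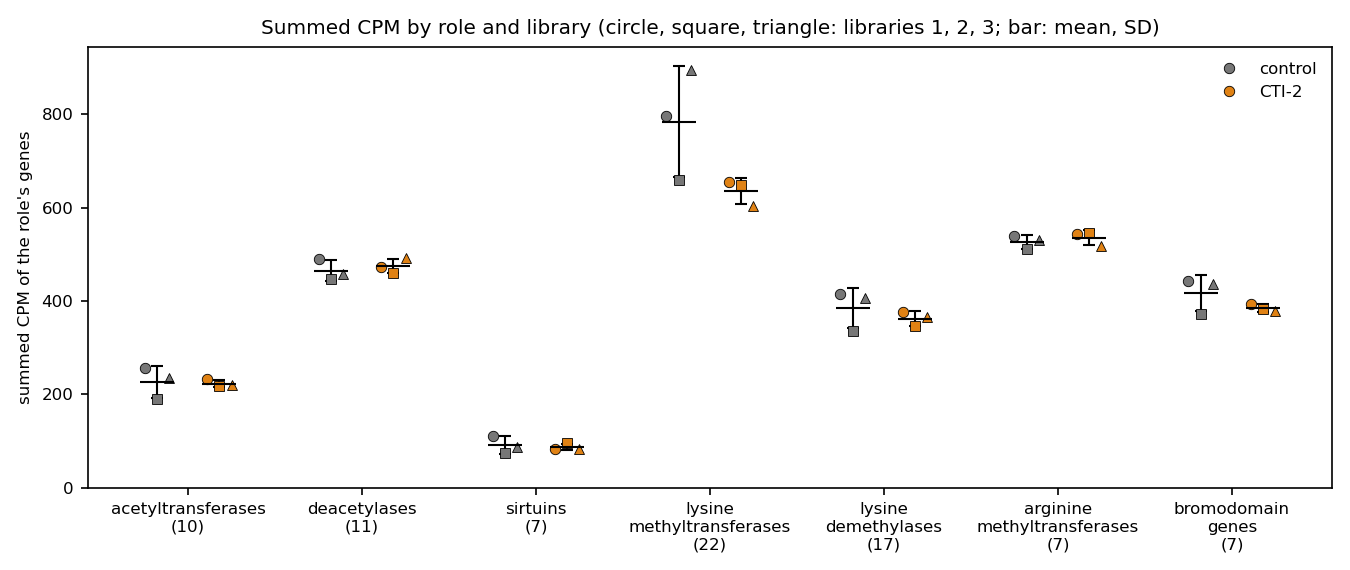
Summed CPM of each role's genes (y axis, from 0) in each library, grey for control and orange for CTI-2, with symbols for libraries 1 to 3 and bars for mean and SD. Only the lysine methyltransferase sums do not overlap, at 660 to 896 CPM in controls and 603 to 655 CPM after CTI-2.

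Lysine demethylase genes had 10 negative and 3 positive log2 fold changes among 13 tested members, with a median of -0.10 and no call in edgeR. Over all tested genes 51.3% were negative and 8.03% were called. An unadjusted p under 0.05 was found in edgeR for 1 of the 13, against 23.9% of all tested genes. That gene, KDM7A, encodes a demethylase of repressive histone marks and had 6.93, 3.82 and 7.66 CPM in controls and 3.49, 3.37 and 0.906 CPM after CTI-2. The log2 fold change of -1.04 carried an SE of 0.41 (adjusted p = 0.106), and CTI-2 library 3 had 2 counts. KDM1A, the flavin-dependent demethylase LSD1, had 138, 110 and 115 CPM against 150, 112 and 136 CPM, fully intermixed (log2 fold change 0.18, 95% interval -0.06 to 0.43). The KDM5 enzymes remove methyl groups from active promoters: KDM5A had a log2 fold change of -0.10 (-0.37 to 0.17), KDM5B 0.10 (-0.63 to 0.82) and KDM5C -0.15 (-0.42 to 0.12). KDM3B, at -0.36, had an adjusted p of 0.317. KDM6A, which removes the mark that EZH2 sets, had -0.03 (-0.56 to 0.50). Its paralog KDM6B had 9, 11 and 10 counts in controls and 6, 8 and 6 after CTI-2 and was below the filter, as were KDM4B, KDM4D and KDM8.

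Arginine methyltransferase genes gave 3 positive and 3 negative log2 fold changes among 6 tested members, with a median of -0.02. PRMT1, the main asymmetric arginine methyltransferase, had 158, 182 and 172 CPM in controls and 162, 181 and 159 CPM after CTI-2, and its log2 fold change of 0.02 had a 95% interval of -0.21 to 0.24. PRMT3, which methylates a ribosomal protein, had 0.10 (-0.13 to 0.32). PRMT2 had 121, 117 and 124 CPM against 146, 128 and 147 CPM, without overlap but with an edgeR adjusted p of 0.125, and PRMT9 lay at -0.55 on the log2 scale (adjusted p = 0.242). None of the 6 tested members was called, and 1 had an unadjusted p under 0.05, against 8.03% and 23.9% of all tested genes in edgeR. PRMT5, the main symmetric arginine methyltransferase, had 1, 0 and 1 counts in controls and 4, 3 and 0 after CTI-2. Those counts are too few for a fold change, and the reason for the near absence of PRMT5 from the counts was not tested.

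None of the 7 bromodomain genes was called in edgeR, and 1, BRD9, had an unadjusted p under 0.05, against 8.03% and 23.9% of all tested genes. BRD2 and BRD3, paralogs whose products bind acetylated histones, had log2 fold changes of -0.14 (95% interval -0.40 to 0.12) and -0.13 (-0.68 to 0.42). BRD2 had 74.3, 76.3 and 76.6 CPM in controls and 69.8, 72.8 and 56.2 CPM after CTI-2, so CTI-2 library 3 alone was far from the rest. BRD9, a subunit of a SWI/SNF remodelling complex, had 91.7, 62.3 and 83.8 CPM against 62.8, 62.0 and 58.4 CPM (log2 fold change -0.31, adjusted p = 0.134). It shares 222 exonic bases with ZDHHC11 on the same strand and 182 with TRIP13 on the opposite strand, with log2 fold changes of 0.16 and -0.17. BRD8, of the TIP60 complex, had 0.05 (-0.16 to 0.27), and BRD7 had 0.00 (-0.35 to 0.35). BRD7 shares 3593 exonic bases with ADCY7 on the opposite strand, which fell (log2 fold change -0.61, edgeR adjusted p = 0.037).

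Among single libraries, leaving out control 2 moved the number of called members most. It had the lowest CPM of the 6 libraries in 22 of the 68 tested members (32.4%, against 20% of all tested genes) and lay within the range of the CTI-2 libraries in 28 (41.2%, against 39.8%). Controls 1 and 3 lay within that range in 22 (32.4%, against 31.6%) and 23 (33.8%, against 28.6%). Without control 2, 10 of 68 members (14.7%) were called, against 16.1% of all tested genes in either direction. All 10 were lower, whereas the 1610 calls over 9995 tested genes were 957 higher and 653 lower. The members' share of lower calls was thus above that of all tested genes, and their share of higher calls below it. The reason was not tested. The 10 were HDAC10, HDAC6, DOT1L, SETD5, KMT2C, SIRT7, BRD9, KAT2A, EZH2 and KDM7A, with log2 fold changes of -0.40 for EZH2 to -1.77 for HDAC10 and edgeR adjusted p of 0.00366 to 0.0468. Leaving out control 1, or the first or the third CTI-2 library, gave 1 call each. Leaving out CTI-2 library 2 gave 2, both lower. Leaving out control 3 also gave 2, with HDAC10 lower and CREBBP newly called as higher (edgeR adjusted p = 0.0334). CTI-2 library 3 was the lowest of the 6 libraries in 24 members (35.3%, against 22.1% of all genes), and control 3 was the highest in 24 (35.3%, against 29.1%). Genes with the longest 20% of annotated transcripts deviated by a median of -0.05 on the log2 scale in control 2, against 0.09 and 0.14 in controls 1 and 3 and -0.01 to -0.09 in the CTI-2 libraries. The part of this length pattern in the members' values was not tested beyond removing the trend, which left 4 calls (HDAC10, HDAC6 and SETD6 lower, CREBBP higher).

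**Figure D3:**
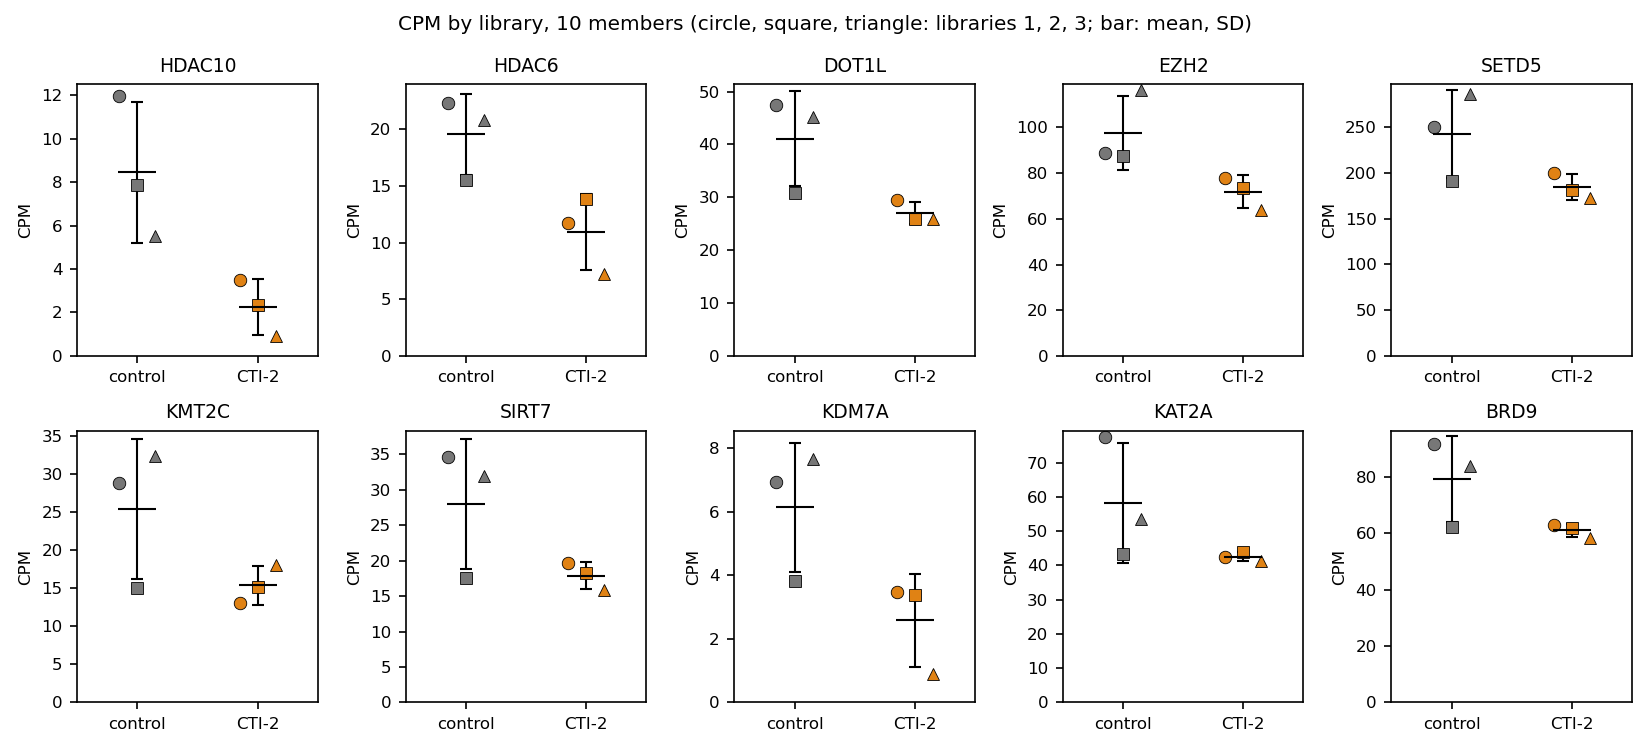
CPM in each library (y axes, from 0) of the 10 members called without control 2, grey for control and orange for CTI-2, with circle, square and triangle for libraries 1, 2 and 3 and bars for mean and SD. The control 2 square sits among the CTI-2 values for SETD5, KMT2C, SIRT7, KAT2A and BRD9, and above them for HDAC10, HDAC6, DOT1L, EZH2 and KDM7A.

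**Figure D4:**
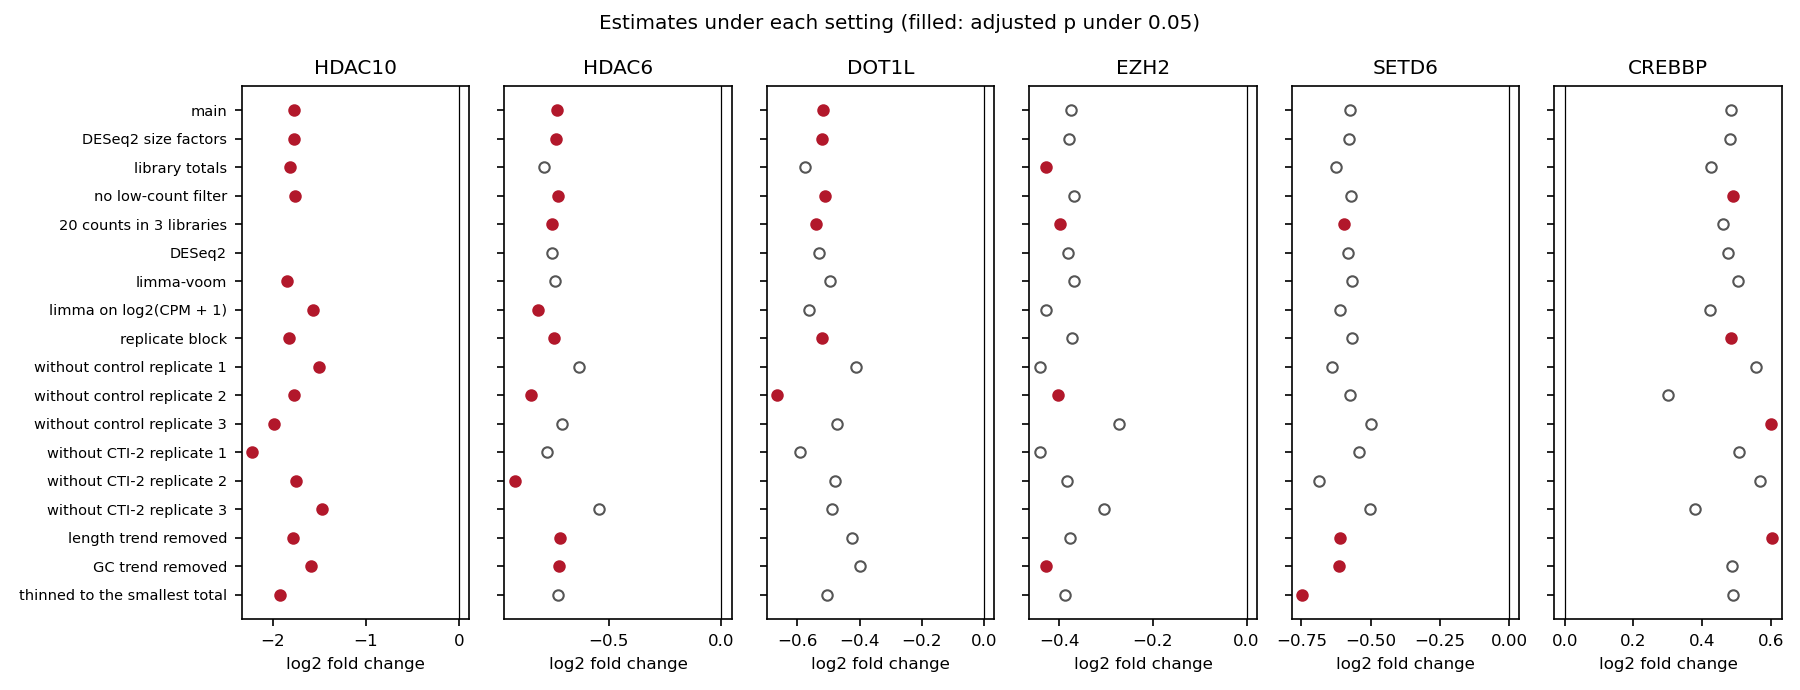
Log2 fold change (x axes, scaled per gene) of 6 members under the reported fit and each alternative other than the stricter threshold, filled where the adjusted p was under 0.05. HDAC10 is filled wherever it has an adjusted p, whereas HDAC6, DOT1L, EZH2, SETD6 and CREBBP keep their direction but cross the threshold.

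Members had long transcripts, with a median annotated length of 3315 bases against 2485 for all tested genes, and a median GC content of 50.9% against 48.5%. Among the 34 members of higher GC content 23 had a negative log2 fold change (median -0.14), against 18 of the 34 of lower GC content (median -0.03). Across the 68 members the log2 fold change correlated with GC content at r = -0.16 and with log10 transcript length at r = -0.06, and across 9218 genes at r = -0.15 and -0.17. Points within either correlation share libraries, and genes are not independent replicates.

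Subunits and enzymes of the same complexes that the symbols did not cover were taken from a list. Of 113 listed genes 112 were in the table and 105 were tested, giving 1 higher and 1 lower, where 8.03% of all tested genes were called. Their median log2 fold change was 0.04, and 15 had an unadjusted p under 0.05, against 23.9% of all tested genes. SAP18, a subunit of the SIN3 deacetylase complex, rose from 240, 250 and 210 CPM to 298, 279 and 309 CPM (edgeR adjusted p = 0.0274, log2 fold change 0.38 with an SE of 0.11). SMYD2, a lysine methyltransferase of p53 and other proteins, fell from 28.5, 19.6 and 14.5 CPM to 9.83, 11.8 and 13.1 CPM (edgeR adjusted p = 0.0213, log2 fold change -0.82 with an SE of 0.23). In both genes the groups did not overlap. The SAP18 call was lost without any 1 library other than control 2 (adjusted p = 0.0635 to 0.151), and that of SMYD2 when control 1 (0.18), the first CTI-2 library (0.0938) or the second (0.051) was left out. Over the alternatives the adjusted p ran from 0.00124 to 0.151 for SAP18 and from 0.00362 to 0.18 for SMYD2. Of the Polycomb partners of EZH2 20 were tested and none was called in edgeR, with 2 at an unadjusted p under 0.05. The other lists without a call in edgeR were COMPASS (11 tested, 2 at an unadjusted p under 0.05), acetyltransferase complexes (27 tested, 4) and further erasers (6 tested, 0).

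Counts by tool differed. On the 68 members limma-voom called 1, HDAC10, where it called 7.27% of all genes, and DESeq2 called 0 of the 53 members to which it gave an adjusted p, where it called 6.51% of genes. At an unadjusted p under 0.05 edgeR, limma-voom and DESeq2 gave 16, 16 and 13 members. The smallest DESeq2 adjusted p was 0.108, for HDAC6.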

How the data were processed

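Gene expression was measured in 6 libraries grouped by the agent in the labels, 3 control and 3 CTI-2. Per the labels' protocols, Trizol RNA went into libraries of the Oxford Nanopore cDNA-PCR kind. The submitters' processing notes name minimap2. The minimap2 version, build, gene models, counting tool and strand setting were not given in the sources used here. Whole-number counts and CPM were deposited for each gene, each CPM being the count divided by its library total and scaled to 1000000 (to within 1e-09). Reads carry no molecular identifiers, so floors cover counting error only.

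The filter was filterByExpr, leaving 9848 of 16362 genes, and scaling was TMM. CTI-2 minus control was fitted in edgeR 4.0.16 under R 4.3.3 by glmQLFit (robust) and glmQLFTest, with Benjamini-Hochberg adjustment over all tested genes at 0.05. Log2 fold changes are from this fit. SE were derived from the test statistic and 95% intervals are unadjusted. Members below the filter (13 of 81) have no test. For 1 tested member, values are not reported here, although counts and sums include it. DESeq2 1.42.0 and limma 3.58.1 (voom, and log2(CPM + 1)) were alternatives, as were other scalings and filters, a block on replicate number, omission of each library in turn, removal of lowess trends (span 0.3) with transcript length or GC content, thinning to the smallest total and an adjusted p of 0.01. The fit was tested on simulated counts. Coordinates, transcript lengths and overlaps come from GENCODE 29, coordinates only where the deposited length equals its gene span.

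Members and lists were chosen with earlier results of these data known. Named genes were, in each role, all called members, the 2 uncalled ones of smallest adjusted p and the uncalled one of highest CPM, with a fixed list of 24 genes and their paralogs whatever their outcome. KMT2C and members named for low counts, listed fold changes or overlaps were chosen after their values were seen. Libraries of 1 group differed by more than sampling noise in every pair, with chi-square over its degrees of freedom at 1.77 to 6.76.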

Additional observations from a re-analysis of the deposited data

How the results depend on the processing

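Of the 3 called members, HDAC10 passed under each of the 16 alternatives that gave it an adjusted p, HDAC6 under 9 of 18 and DOT1L under 5 of 18. Calls among members numbered 5 without a low-count filter, 0 in DESeq2 (13 at an unadjusted p under 0.05), 1 in limma-voom, 6 with the GC trend removed, 1 at an adjusted p of 0.01, and 1 to 10 when 1 library was left out. The direction split of 0 higher and 3 lower became 1 and 3 with the length trend removed and 1 and 5 with the GC trend removed. It became 1 and 4 without a low-count filter and 1 and 1 without control 3. Among the 105 partner and further genes, with 2 calls, there was 1 in DESeq2, 1 in limma-voom, 1 in limma on log2(CPM + 1), 1 after thinning, 0 at an adjusted p of 0.01, and 0 to 6 when 1 library was left out. Over all genes, with 791 calls, there were 467 in DESeq2, 306 at an adjusted p of 0.01, and 400 to 1610 when 1 library was left out; 57.8% of calls were lower, and 40.6% without control 2. With the replicate number as a block, calls became 5 among members (1 higher and 4 lower) and 4 among partner genes, against 942 over all genes. Same-numbered libraries deviated with r = -0.05, 0.01 and -0.12, and no control correlated best with the CTI-2 library of its own number. The labels give a number and state no pairing, and so few libraries cannot settle whether one existed. The other settings stayed within 1.5 times of the reported counts. Of 741 recomputed values of named genes 663 kept their direction and side of the threshold, 37 lost the call, 19 gained one, 22 changed sign without a call on either side, and no called value changed sign. The causes were not tested. Low counts limit what can be said of the 13 untested members and of genes under about 10 counts per library.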
